A study of Arabidopsis thaliana with 6 samples.

Results

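The 9 genes described here encode soluble receptors of the hormone abscisic acid (ABA) in Arabidopsis thaliana: PYR1 (AT4G17870) and its relatives PYL1 (AT5G46790), PYL2 (AT2G26040), PYL4 (AT2G38310), PYL5 (AT5G05440), PYL6 (AT2G40330), PYL7 (AT4G01026), PYL8 (AT5G53160) and PYL9 (AT1G01360). They were chosen by locus code and are 9 of the 20297 genes listed in the deposited files. Of these, 8 were listed for all 3 stresses, and PYL6 was listed for cold alone. The study sequenced RNA from leaves of 2-week-old lsm1a lsm1b double mutants and of Col-0, the wild type, with 1 library per genotype and stress and 6 in all. LSM1A and LSM1B encode interchangeable subunits of the cytoplasmic LSM1-7 ring, which activates removal of the mRNA cap before decay. The cold groups, lsm1a lsm1b and Col-0, grew on soil and were held at 4 °C for 24 h. The PEG groups, lsm1a lsm1b and Col-0, grew on GM medium plates and were moved to plates with 55% PEG for 10 h, and the NaCl groups, again lsm1a lsm1b and Col-0, were moved to 150 mM NaCl for 10 h. All groups grew under a long-day photoperiod, no unstressed group was analysed here, and the sources used here give neither the mutant alleles nor the number of plants per library.

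As background, PYR/PYL proteins bind ABA in a pocket, and a gate loop and a latch loop then close over the hormone. The closed receptor docks on a clade A protein phosphatase 2C (PP2C) and blocks it, which frees SnRK2 kinases to phosphorylate ABF transcription factors and, in guard cells, ion channels. PYR1, PYL1 and PYL2 form a dimeric subfamily, whereas PYL4, PYL5 and PYL6 and, separately, PYL7, PYL8 and PYL9 belong to subfamilies that are mostly monomeric.

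The number of coding exons set the subfamily of PYL7, PYL8 and PYL9 apart, but did not separate the other members. PYR1, PYL1, PYL2, PYL4, PYL5 and PYL6 each had 1 coding exon in the reference annotation (TAIR10.1), whereas PYL7, PYL8 and PYL9 had 3. The encoded proteins ranged from 187 residues in PYL9 to 221 in PYL1. In the coding sequence, PYR1 was 75.2% identical to PYL1, and PYL7 was 81.4% identical to PYL9. All 9 members encoded the conserved gate and latch motifs. The coding DNA around the gate is shown for the 3 members that were lower in the mutant in the cold (PYR1, PYL1, PYL5) and for PYL7 and PYL8, which were not. Capitals mark the gate codons, and sequences and positions are of TAIR10.1, from RefSeq. They lie at chr4:9929029-9929073 on the plus strand for PYR1, chr5:18984366-18984410 on the minus strand for PYL1, chr5:1609695-1609739 (plus) for PYL5, chr4:447653-447697 (plus) for PYL7 and chr5:21561544-21561588 (plus) for PYL8.
PYR1: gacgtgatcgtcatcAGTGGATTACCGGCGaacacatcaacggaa
PYL1: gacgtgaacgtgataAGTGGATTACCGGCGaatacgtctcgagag
PYL5: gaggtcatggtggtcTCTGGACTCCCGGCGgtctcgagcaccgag
PYL7: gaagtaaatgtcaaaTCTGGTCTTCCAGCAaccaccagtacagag
PYL8: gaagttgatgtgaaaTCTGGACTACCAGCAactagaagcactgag
PYR1 and PYL1 spelled the gate with the same codons, which the other 3 genes matched only in part.

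The libraries held 10289392 to 22639128 counts. LSM1A had 10, 26 and 12 counts in the lsm1a lsm1b libraries of cold, PEG and NaCl, against 206, 246 and 273 in Col-0. LSM1B had 39 and 98 counts in lsm1a lsm1b in cold and PEG, against 152 and 207 in Col-0. In NaCl it had 439 counts in the library labelled lsm1a lsm1b and 195 in Col-0, so LSM1B went against the label there. In NaCl comparisons that library is called the library labelled lsm1a lsm1b, while figures and their captions show it as lsm1a lsm1b. The genotype estimates across stresses are also given without the NaCl pair for PYL2, PYR1 and PYL7. All 5 leaf markers were abundant in every library, with a summed level of 5637 to 44829 RPKM. The plate libraries also held 26036 to 37399 counts of PYK10, a β-glucosidase gene of roots and hypocotyls, against 1406 in lsm1a lsm1b and 1206 in Col-0 in the cold. SCR, another root marker, did not follow PYK10, with a log2 fold change of 0.52 in cold over PEG and -0.06 in cold over NaCl. Of the remaining root markers, IRT1 was listed for PEG and NaCl alone and WER for PEG alone. None of 5 seed storage and oil body genes was listed for cold, whereas 5 were listed for PEG and 4 for NaCl. Both xylem markers were lower in cold. IRX3 was at -2.81 in cold over PEG and -2.79 in cold over NaCl, and XCP1 at -3.30 and -2.88. At an adjusted p of 0.05 in edgeR's test, 2 of 4 guard-cell and 4 of 5 leaf markers were higher in cold over PEG. In cold over NaCl 2 of 4 and 1 of 5 were, and none was lower in either. Of all genes, 21.9% and 14.9% were higher in these comparisons. The part of these markers in the receptor levels was not tested. In bulk RNA of this kind, fewer cells of a type and less RNA per cell cannot be told apart.

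Levels are given as RPKM, which divides each TMM-scaled count by the length of the gene model in the files. Over the 6 libraries PYR1 averaged 31.9 ± 17.2 RPKM, PYL8 30.5 ± 18.1, PYL7 18.7 ± 4.90, PYL4 13.6 ± 1.96, PYL1 13.5 ± 4.80, PYL9 7.25 ± 2.43, PYL5 5.48 ± 1.3 and PYL2 1.75 ± 0.926 (SD, n = 6, over both genotypes and all stresses). Neighbours in this order had overlapping ranges, except PYL5 and PYL2, whose ranges were 3.22 to 6.82 and 0.665 to 3.11 RPKM. PYL4 (11.9 to 17.4 RPKM) also lay wholly above PYL9 (4.66 to 11.3 RPKM). PYR1 varied most, by 11.3-fold between its lowest and highest library, and PYL4 least among the 8, by 1.46-fold. PYL6 was at 1.33 RPKM in both cold libraries, with 14 counts in lsm1a lsm1b and 16 in Col-0.

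**Figure D1:**
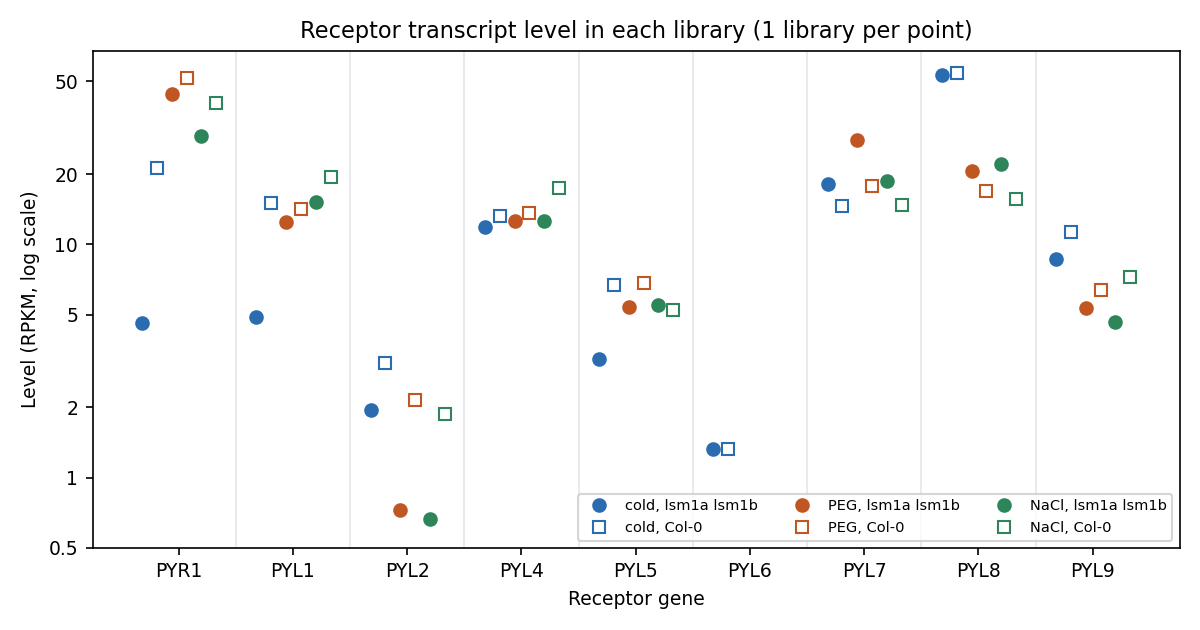
Level of each receptor gene in each library (RPKM, log axis). Filled circles are lsm1a lsm1b, open squares Col-0, and colours are the stresses, with 1 library per point. PYR1 and PYL1 are lowest in the lsm1a lsm1b cold library, and PYL8 is highest in both cold libraries.

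The make-up of the receptor pool differed between cold and the plate stresses. PYL8 made up 49.8% of the summed RPKM of the 8 receptors in lsm1a lsm1b and 38.9% in Col-0 in the cold. In PEG its share was 15.9% in lsm1a lsm1b and 13.1% in Col-0, and in NaCl 20.4% in the library labelled lsm1a lsm1b and 12.9% in Col-0. PYR1 ran the other way. It held 4.31% of the pool in lsm1a lsm1b and 15.2% in Col-0 in the cold, against 34.2% in lsm1a lsm1b and 39.9% in Col-0 in PEG. In NaCl it held 26.8% in the library labelled lsm1a lsm1b and 33.1% in Col-0. It ranked first in all 4 plate libraries, whereas PYL8 ranked first in both cold libraries.

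**Figure D2:**
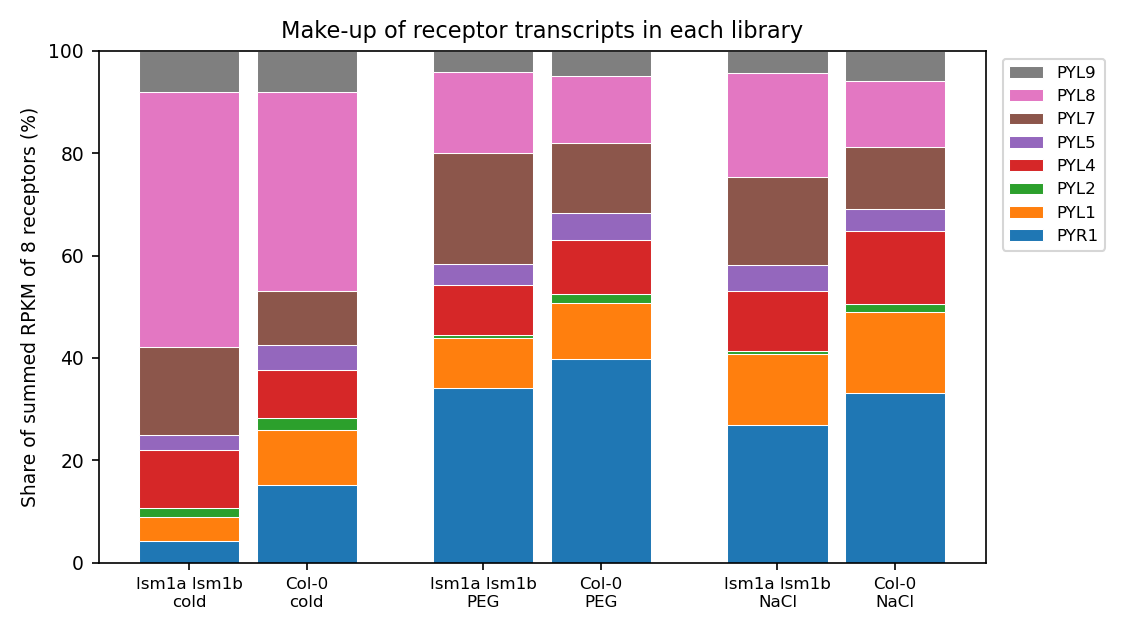
Share of each of 8 receptor genes in their summed RPKM (percent), 1 bar per library, lsm1a lsm1b left of Col-0 in each stress. PYL8 takes 49.8% and 38.9% in the cold bars, and PYR1 takes the largest share of every PEG and NaCl bar.

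The first comparison was between genotypes within each stress. In the cold, 3 of the 9 receptor genes were lower in lsm1a lsm1b by 2-fold or more, with 5 or more CPM in the higher library, and none was higher. Among all 14816 genes reaching that level, 5.13% were lower and 8.26% higher by the same rule, and 7 of the 9 receptors reached it. The median log2 ratio was -0.39 over the receptors and -0.02 over all genes past the level. Each group is 1 library, so a ratio cannot be checked between replicates and carries no test, and its 95% interval covers counting error only.

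PYR1, the founding member of the family and the target of the synthetic agonist pyrabactin, had 38 counts (4.58 RPKM) in lsm1a lsm1b in the cold, against 201 counts (21.3 RPKM) in Col-0. The log2 ratio was -2.17 (interval -2.76 to -1.72), a value below which only 0.999% of genes past the level lay. PYL1, its closest relative among the members, had 43 counts (4.90 RPKM) in lsm1a lsm1b and 150 counts (15.0 RPKM) in Col-0. Its log2 ratio was -1.58 (interval -2.15 to -1.12). PYL5, a monomeric receptor with high affinity for ABA, had 38 counts (3.22 RPKM) in lsm1a lsm1b and 90 counts (6.69 RPKM) in Col-0. Its log2 ratio of -1.03 (interval -1.65 to -0.50) was close to the 2-fold limit. For each of these 3 genes the lsm1a lsm1b cold library was the lowest of all 6 libraries, as it also was for PYL4 (11.9 RPKM), which did not pass.

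The other receptors in the cold stayed within 2-fold. PYL8, the most abundant receptor there, had 618 counts (53.0 RPKM) in lsm1a lsm1b and 721 counts (54.3 RPKM) in Col-0, a log2 ratio of -0.04 (interval -0.20 to 0.12) that turned to 0.049 under total-count scaling. PYL4 had 130 counts in lsm1a lsm1b and 165 in Col-0, and PYL9 had 85 in lsm1a lsm1b and 127 in Col-0. PYL7 had 209 counts in lsm1a lsm1b and 191 in Col-0. PYL2, with 11 counts in lsm1a lsm1b and 20 in Col-0, and PYL6 were below 5 CPM in both libraries, and the depth does not resolve a 2-fold difference for either. PYL7 is uncertain in every comparison because 2 annotated genes on the opposite strand, AT4G01030 and AT4G03845, share 571 bases (AT4G01030) and 269 bases (AT4G03845) with its counted model, and the sources used here do not say whether the counting used strand.

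Of 5 guard-cell markers, 2 (KAT1 and SLAC1) were lower in lsm1a lsm1b in the cold by the same rule, beside the 5.13% of all genes, and the other 3 were within 2-fold. KAT1, an inward potassium channel, had 36 counts in lsm1a lsm1b and 216 in Col-0, and SLAC1, the anion channel opened by ABA signalling, had 38 in lsm1a lsm1b and 110 in Col-0. FAMA had 154 counts in lsm1a lsm1b and 340 in Col-0, MYB60 had 178 in lsm1a lsm1b and 237 in Col-0, and HT1 had 16 in lsm1a lsm1b and 28 in Col-0. The summed level of the 5 was 30.2 RPKM in lsm1a lsm1b and 52.2 RPKM in Col-0. None was at 0, and their part in the receptor ratios was not tested. In the plate stresses KAT1 ran opposite to PYR1, while FAMA and SLAC1 ran in the same direction as PYR1. In PEG, KAT1 had 284 counts in lsm1a lsm1b and 171 in Col-0, and MYB60 had 31 and 15. FAMA had 107 counts in lsm1a lsm1b and 156 in Col-0 there, and SLAC1 had 66 and 75. In NaCl, KAT1 had 236 counts in the library labelled lsm1a lsm1b and 104 in Col-0, and MYB60 had 200 and 63. FAMA had 232 counts in that library and 278 in Col-0, SLAC1 had 112 and 124, and HT1 had 38 and 31. The SLAC1 intervals held 0 in PEG and in NaCl. The 5 leaf mesophyll markers summed to 25963 RPKM in lsm1a lsm1b and 44829 RPKM in Col-0 in the cold, with LHCB1.3 the only marker past 2-fold, and the part of these was not tested either.

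**Figure D3:**
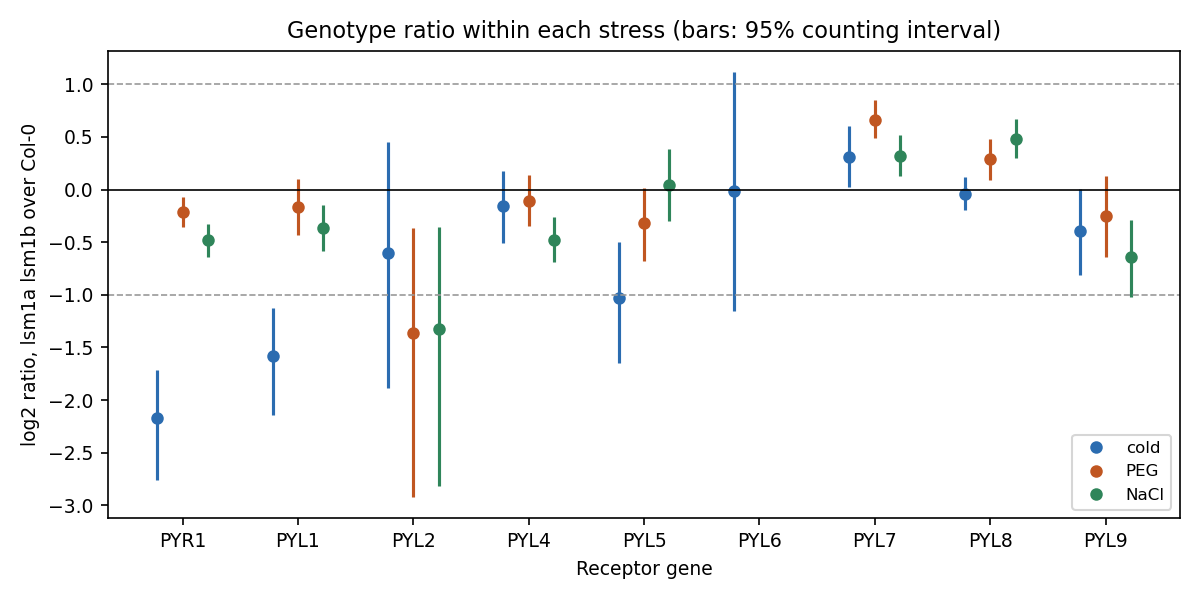
Log2 ratio of lsm1a lsm1b over Col-0 for each receptor gene in cold, PEG and NaCl, 1 library a side, with 95% counting intervals as bars and dashed lines at 2-fold. PYR1, PYL1 and PYL5 pass the lower line in cold, PYL2 passes it in PEG and NaCl at under 5 CPM, and PYL7 is above 0 in all 3 stresses.

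In PEG no receptor passed the rule in either direction, where 3.6% of 15070 genes were higher and 3.65% lower. In NaCl none passed it in the library labelled lsm1a lsm1b, where 5.5% of 15906 genes were higher and 4.46% lower. The median log2 ratio over the 8 receptors was -0.19 in PEG and -0.42 in NaCl, and that over all genes was 0.00 and -0.01. PYR1 had 714 counts (44.2 RPKM) in lsm1a lsm1b and 879 counts (51.7 RPKM) in Col-0 in PEG, a log2 ratio of -0.21 (interval -0.36 to -0.07). In NaCl it had 579 counts (29.1 RPKM) in the library labelled lsm1a lsm1b and 723 counts (40.3 RPKM) in Col-0, a log2 ratio of -0.48. PYL1 had 214 counts (12.5 RPKM) in lsm1a lsm1b and 255 counts (14.2 RPKM) in Col-0 in PEG, a log2 ratio of -0.17 whose interval (-0.44 to 0.10) holds 0. It had 320 counts (15.2 RPKM) in the library labelled lsm1a lsm1b and 368 counts (19.4 RPKM) in Col-0 in NaCl, a log2 ratio of -0.36 (interval -0.59 to -0.15). Both genes had ratios below 0 in all 3 stresses, with the lowest in the cold.

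The size of that difference between stresses was taken from the counts, without the prior count. For PYR1 the cold log2 ratio minus the PEG ratio was -2.01 (interval -2.53 to -1.49), and the cold ratio minus the NaCl ratio was -1.74 (interval -2.26 to -1.21). For PYL1 the differences were -1.45 (interval -2.01 to -0.90) against PEG and -1.26 (interval -1.79 to -0.72) against NaCl. For PYL5 the differences were -0.74 (interval -1.38 to -0.09) against PEG and -1.11 (interval -1.75 to -0.47) against NaCl. For PYL8 they were -0.33 (interval -0.58 to -0.08) and -0.52 (interval -0.76 to -0.29). For PYL7 they were -0.36 (interval -0.69 to -0.02) and -0.01 (interval -0.35 to 0.33). For PYL4, PYL2 and PYL9 the intervals of cold against PEG and of cold against NaCl held 0. These intervals carry counting error only, so a difference between plants of 1 group would not show in them.

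PYL7 and PYL8 stood on the other side of Col-0. PYL7 had 627 counts (28.0 RPKM) in lsm1a lsm1b and 419 counts (17.8 RPKM) in Col-0 in PEG, a log2 ratio of 0.66 (interval 0.49 to 0.85). In NaCl it had 516 counts (18.7 RPKM) in the library labelled lsm1a lsm1b and 368 counts (14.8 RPKM) in Col-0, a log2 ratio of 0.32 (interval 0.13 to 0.52). PYL8, which also acts in root responses to ABA, had 467 counts (20.6 RPKM) in lsm1a lsm1b and 406 counts (17.0 RPKM) in Col-0 in PEG, a log2 ratio of 0.29. It had 619 counts (22.2 RPKM) in the library labelled lsm1a lsm1b and 395 counts (15.7 RPKM) in Col-0 in NaCl, a log2 ratio of 0.48 (interval 0.30 to 0.67). PYL9, in the same subfamily, went the other way in NaCl, with 110 counts (4.66 RPKM) in the library labelled lsm1a lsm1b and 154 counts (7.22 RPKM) in Col-0, a log2 ratio of -0.64 (interval -1.02 to -0.29). PYL4 had 330 counts in that library and 410 in Col-0. PYL5 had 155 counts there and 134 in Col-0, and PYL2 had 9 counts there and 23 in Col-0. In PEG, PYL2 had 8 counts in lsm1a lsm1b and 25 in Col-0. Its log2 ratios of -1.36 in PEG and -1.33 in NaCl were past 2-fold, but the gene was under 5 CPM in both stresses.

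The second comparison asked whether a genotype difference was shared by the stresses, with the 3 stress pairs standing in for replicates. None of the 8 receptors tested passed an adjusted p of 0.05 in edgeR's quasi-likelihood test with stress as a block, and 2 had an unadjusted p under 0.05. Over all 16927 genes tested, 0.112% were called higher and 0.1% lower. DESeq2 and limma-voom, which called more genes, also called 0 receptors. Without the NaCl pair the fit called 0 of all genes, so it says nothing on the receptors' calls, and the estimates there were -1.10 for PYL2, -1.12 for PYR1 and 0.50 for PYL7. PYL2 had the largest estimate, a log2 fold change of -1.23 ± 0.39 (SE) with an edgeR p of 0.0247 and an adjusted p of 0.249. It was lower in the library labelled lsm1a lsm1b in 3 of 3 stresses, on 8 to 25 counts. PYL7 was higher in 3 of 3, at 0.44 ± 0.16 (edgeR adjusted p 0.284). PYR1 was at -0.87 ± 0.40 (edgeR adjusted p 0.373) and lower in 3 of 3. Its ratios within a stress were uneven, at -2.17 in cold, -0.21 in PEG and -0.48 in NaCl. With 1 stress pair left out at a time, the PYR1 estimate ran from -1.26 to -0.35. The median over the 8 receptors was -0.42, and that over all genes was 0.00.

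The third set of comparisons put cold beside each plate stress, with 2 libraries a side and genotype in the fit. Stress, growth on soil or plates, and duration differ together here and cannot be told apart. PYL8 was higher in cold than in PEG by a log2 fold change of 1.53 ± 0.20 (SE), with an edgeR adjusted p of 0.00468. It was higher in cold than in NaCl by 1.53 ± 0.20, with an edgeR adjusted p of 0.00916. Both cold libraries (53.0 RPKM in lsm1a lsm1b, 54.3 in Col-0) lay above all 4 plate libraries, whose highest value was 22.2 RPKM. The call in cold over PEG was lost when either PEG library was left out (adjusted p up to 0.0596), and that in cold over NaCl when either NaCl library was left out (adjusted p up to 0.0759), with values between 1.29 and 1.73.

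PYR1 was lower in cold than in PEG, with a log2 fold change of -2.12 ± 0.51 (SE, edgeR adjusted p 0.0242). Against NaCl the difference was -1.62 ± 0.50 and did not pass (edgeR adjusted p 0.0636), although DESeq2 (adjusted p 0.00621) and limma-voom (adjusted p 0.0444) called it. Taken by genotype, with 1 library a side, cold over PEG was -3.27 (interval -3.78 to -2.80) between the lsm1a lsm1b libraries and -1.28 (interval -1.51 to -1.06) between the Col-0 libraries. Without the lsm1a lsm1b cold library, PYR1 was at -1.34 against PEG (adjusted p 0.00443), and without the Col-0 cold library at -3.23 (adjusted p 0.000107). The call was lost without either PEG library (adjusted p 0.129 without lsm1a lsm1b PEG and 0.0732 without Col-0 PEG). Of the 8 receptors, 1 was thus higher and 1 lower in cold than in PEG, beside 21.9% of all genes in each direction. In cold over NaCl, 1 was higher and 0 were lower, beside 14.9% and 15.6% of all genes. Scaling by total count left these receptor directions as they were but put the median log2 fold change of all genes at -0.14 in cold over PEG (0.00 under TMM) and -0.20 in cold over NaCl (-0.02 under TMM). It also changed the split of all calls in cold over NaCl, which was 48.9% higher under TMM and 35.0% higher under total count.

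**Figure D4:**
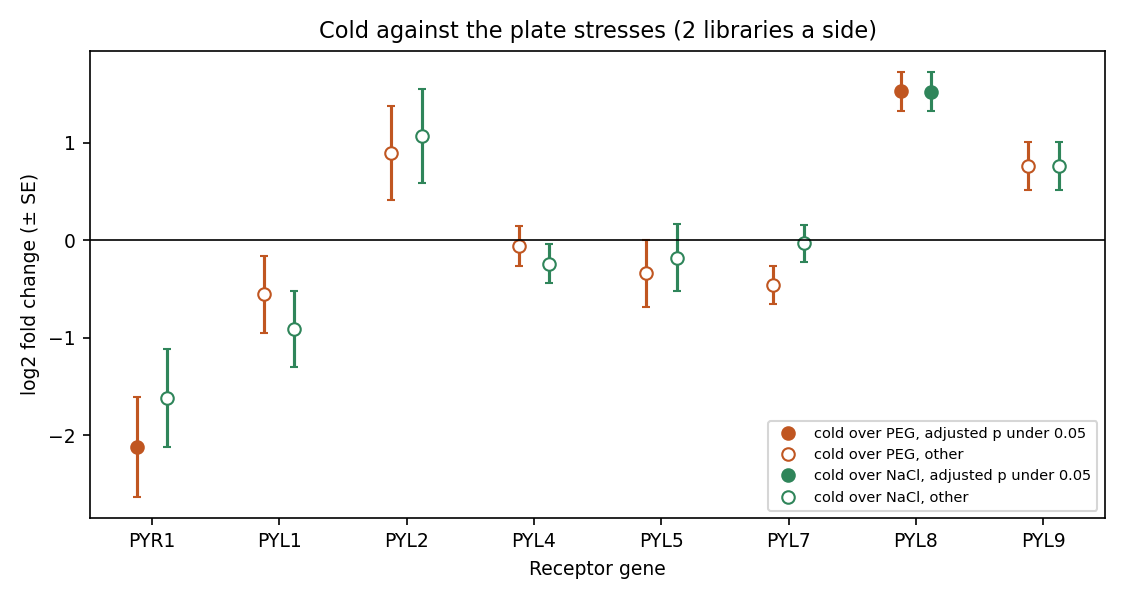
Log2 fold change (± SE) of each receptor gene in cold over PEG and cold over NaCl, 2 libraries a side, from edgeR's fit to 6 libraries. Filled points have an adjusted p under 0.05: PYL8 at 1.53 in both, and PYR1 at -2.12 in cold over PEG.

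The remaining receptors did not pass in either comparison with all 6 libraries. PYL9 came nearest, at 0.76 ± 0.25 in cold over PEG (edgeR adjusted p 0.0568) and 0.76 ± 0.25 in cold over NaCl (edgeR adjusted p 0.0694). Its cold libraries, 8.62 RPKM in lsm1a lsm1b and 11.3 RPKM in Col-0, lay above all plate libraries. PYL1 was at -0.55 ± 0.40 in cold over PEG, made of -1.35 in lsm1a lsm1b and 0.08 in Col-0, and it turned to 0.04 without the lsm1a lsm1b cold library. Without the Col-0 cold library PYL1 passed, at -1.33 in cold over PEG (edgeR adjusted p 0.0101) and -1.69 in cold over NaCl (edgeR adjusted p 0.00553). PEG and NaCl, both plate treatments of 10 h, gave 0 calls among the 8 receptors in the edgeR fit, where 3.21% of all genes were higher and 5.33% lower in PEG. No receptor had an unadjusted p under 0.05 there, and DESeq2 and limma-voom called 0 as well. The largest estimates were 0.50 ± 0.47 for PYR1 and 0.43 ± 0.19 for PYL7 in PEG over NaCl.

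The partners of the receptors were read from pathway lists. In the cold the summed level of the 8 receptors was 106 RPKM in lsm1a lsm1b and 140 RPKM in Col-0. The 7 clade A PP2C genes listed in every stress, whose products the receptors inhibit, summed to 390 RPKM in lsm1a lsm1b and 205 RPKM in Col-0. The level of PP2C per receptor transcript was thus 3.67 in lsm1a lsm1b and 1.47 in Col-0 in the cold. In PEG it was 7.14 in lsm1a lsm1b and 9.83 in Col-0, and in NaCl 5.02 in the library labelled lsm1a lsm1b and 4.45 in Col-0. The receptor sums themselves were nearly even in PEG, at 129 RPKM in lsm1a lsm1b and 130 RPKM in Col-0, and were 109 RPKM in the library labelled lsm1a lsm1b and 122 RPKM in Col-0 in NaCl.

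**Figure D5:**
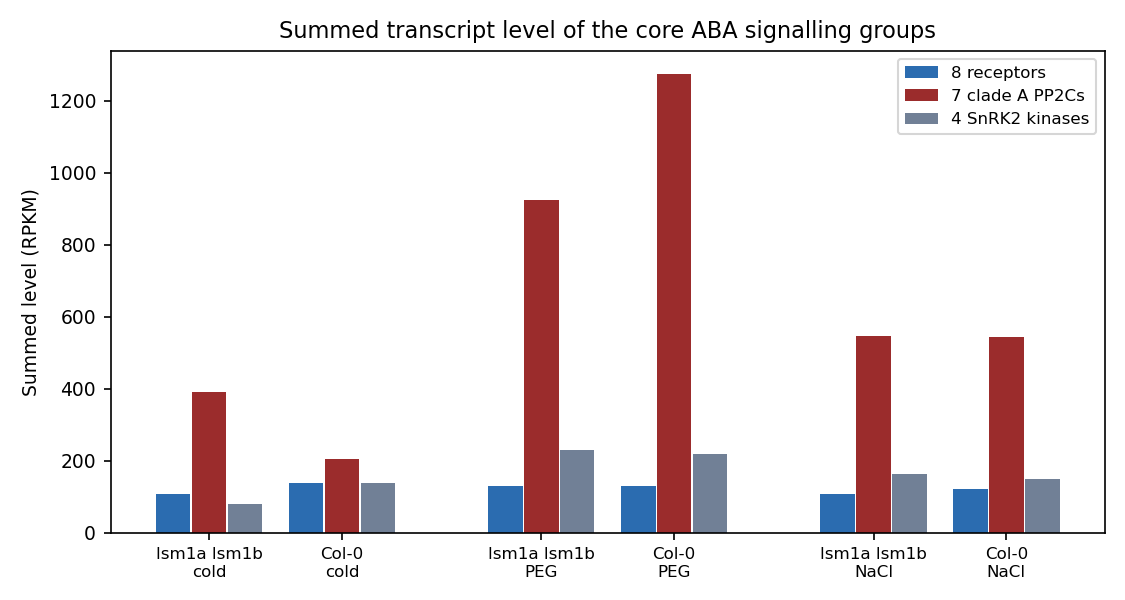
Summed level (RPKM) of 8 receptor, 7 clade A PP2C and 4 SnRK2 genes in each library, lsm1a lsm1b left of Col-0. In cold the PP2C bar is 390 in lsm1a lsm1b and 205 in Col-0, while the receptor bars of all libraries lie between 106 and 140.

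By gene, 3 of 7 PP2C genes were at least 2-fold higher in lsm1a lsm1b in the cold and none lower, by the rule under which 8.26% of all genes were higher. AHG3 had 2540 counts in lsm1a lsm1b and 890 in Col-0, HAI1 had 86 in lsm1a lsm1b and 19 in Col-0, and HAI2 had 98 in lsm1a lsm1b and 36 in Col-0. Of 4 SnRK2 kinase genes, 2 were lower, beside 5.13% of all genes. SNRK2.3 had 35 counts in lsm1a lsm1b and 122 in Col-0, and SNRK2.8 had 316 in lsm1a lsm1b and 810 in Col-0. Of 5 ABF and ABI transcription factor genes none passed, and of 14 ABA target genes 2 were higher and 1 lower. Of 4 genes that act in receptor turnover, PUB23, which encodes a U-box E3 ligase of PYL9, was higher, with 173 counts in lsm1a lsm1b and 54 in Col-0. In PEG 1 of 9 PP2C genes was lower (HAB1, with 3757 counts in lsm1a lsm1b and 8281 in Col-0), beside 3.65% of all genes. In NaCl 1 of 9 was higher (HAI3, with 1298 counts in the library labelled lsm1a lsm1b and 575 in Col-0), beside 5.5% of all genes. Of 16 target genes in NaCl, 5 were higher in that library and 0 lower, and of 6 transcription factor genes 2 were higher and 0 lower. In PEG 1 of 16 target genes was higher and 1 lower, and 1 of 6 transcription factor genes was higher, beside 3.6% of all genes higher. Across stresses, 0 of 7 PP2C, 0 of 4 SnRK2 and 0 of 4 turnover genes were called between genotypes. That test called 0.112% of all genes higher and 0.1% lower, so a count of 0 in short lists says little.

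The same lists were read between cold and PEG, where 21.9% of all genes were called in each direction. Of 7 PP2C genes 6 were lower in cold in edgeR's test, including ABI2 (-2.77 ± 0.33, adjusted p 0.00383) and HAI2 (-5.15 ± 0.62, adjusted p 0.00391). Of 4 SnRK2 genes 3 were lower, among them OST1 (-1.71 ± 0.22, edgeR adjusted p 0.00436), and SNRK2.8 was higher (4.47 ± 0.59, edgeR adjusted p 0.00482). Of 14 target genes 10 were lower and 0 higher, and 4 of 5 transcription factor genes were lower. In cold over NaCl, where 14.9% of all genes were higher and 15.6% lower, 3 of 7 PP2C genes, 2 of 5 transcription factor genes and 6 of 14 targets were lower, and 1 target was higher. Of the 4 SnRK2 genes 1 was higher and 2 were lower there. The difference in share between the lists was not tested.

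Likeness was described by Pearson's r of log2 CPM over the 6 libraries, which share 3 stresses and 2 genotypes, so many genes follow any given pattern. Between receptors, PYR1 was most like PYL1 (r = 0.88), and PYL2 was most like PYL9 (r = 0.90), while PYR1 and PYL8 ran opposite (r = -0.81). Among the other 16926 genes tested, AT1G73170, AT1G67410 and AT1G12400 were most like PYR1 (r = 0.99 for each), out of 713 with r above 0.9. BZIP61, ROPGAP3 and AT1G31150 were most like PYL1 (r = 0.99 for each), out of 207. HSD2, AT1G68670 and D6PKL1 were most like PYL2 (r = 0.99 for each), out of 138.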

How the data were processed

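RNA sequencing of 6 leaf libraries was used. The authors deposited raw read counts for each gene, in a file for each library, and these counts were taken unchanged. TAIR10, TopHat2 and DESeq2 were used upstream, per the submitters' processing notes. The counting tool and strand setting are not given in the sources used here. Every listed gene had at least 1 RPKM in at least 1 library of its stress, so an unlisted gene was low in both. Receptors were taken by locus, and coordinates are those of TAIR10.1. For NaCl, 270 listed genes had a transcript name that differed from the locus code used here, against 1 for PEG. For cold the locus was read from the transcript name itself. Whether LSM1B or a receptor was among the 270 is not reported here.

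Scaling was by TMM in edgeR 4.0.16 under R 4.3.3. Within a stress, log2 ratios came from log2 CPM (edgeR, prior count 2), with exact binomial (Clopper-Pearson) 95% intervals, and were called at 2-fold and 5 CPM. Across libraries, edgeR's quasi-likelihood test (two-sided, filterByExpr, Benjamini-Hochberg over 16927 genes, threshold 0.05) was fitted to genes listed in all 3 stresses, with terms for stress and genotype. Sequence upstream of the receptor genes is not reported here. The scripts were tested on simulated counts. DESeq2 1.42.0, limma-voom (limma 3.58.1), other scalings, filters, covariates and left-out libraries were the alternatives. Depth was 10289392 to 22639128 counts, and intervals cover counting error only.

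Named genes were all 9 receptors, LSM1A and LSM1B, up to 4 genes per pathway list with the largest ratio or smallest p among those called, the cell type markers and the 3 genes most like each of the 3 receptors of widest range. AT4G01030 and AT4G03845 were named for their position. The members and lists were chosen with earlier results of these data known. With 1 library per genotype and stress, nothing says whether plants were pooled.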

Additional observations from a re-analysis of the deposited data

Results flagged for a closer look

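The estimated genotype ratio lay on opposite sides of 0 in different stresses for 2 receptors. The difference was not tested over replicates, because each ratio rests on 1 library a side, and for each receptor the 95% counting interval of 1 of the ratios holds 0. PYL5 had a log2 ratio of -1.03 in cold and 0.04 in NaCl (interval -0.30 to 0.39), and the cold ratio minus the NaCl ratio, from the counts, was -1.11 (95% counting interval -1.75 to -0.47). PYL8 had a log2 ratio of -0.04 in cold (interval -0.20 to 0.12), 0.29 in PEG and 0.48 in NaCl. The cold ratio was 0.049 under total-count scaling, so its direction rests on the scaling. Its cold ratio minus its PEG ratio was -0.33 (interval -0.58 to -0.08), and its cold ratio minus its NaCl ratio was -0.52 (interval -0.76 to -0.29). The NaCl values compare the library labelled lsm1a lsm1b with Col-0.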

How the results depend on the processing

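Under all 10 alternatives the genotype test across stresses called 0 receptors. Without the PEG pair and without the NaCl pair it called 0 of all genes, so those settings say nothing on the receptors' calls. Every log2 ratio within a stress kept its direction under other scalings and prior counts, except PYL8 (0.049) and PYL6 (0.070) in cold under total-count scaling. The counts of all genes called moved widely. The genotype test called 36 genes, against 839 with DESeq2, 71 with limma-voom, 5 with no stress block and 0 to 826 without 1 stress pair. PEG over NaCl called 1446, against 3040 with DESeq2, 2275 with limma-voom, 396 with no genotype term and 0 to 5138 without 1 library. Without 1 library, cold over PEG called 1916 to 7973 genes (7419 with all libraries) and cold over NaCl 300 to 5725 (5169). Receptors lower in cold over NaCl numbered 1 with DESeq2, limma-voom or total count (PYR1) and 0 to 2 without 1 library. Receptors higher in cold over PEG numbered 2 with limma-voom, and those lower 0 with no genotype term. Without 1 library those higher numbered 0 to 1 in both cold comparisons, and those lower in cold over PEG 0 to 2. Receptors lower in the mutant in cold numbered 1 at a 4-fold limit and 0 at 20 CPM. In PEG 1 was higher at 1.5-fold and 1 lower at 1 CPM, and in NaCl 1 was lower at 1.5-fold and 1 at 1 CPM. Estimates that changed sign without 1 library, with their ranges, were PYL1 (-1.33 to 0.038), PYL4 (-0.16 to 0.040) and PYL5 (-0.87 to 0.068) in cold over PEG, PYL5 (-0.69 to 0.25) and PYL7 (-0.14 to 0.057) in cold over NaCl and PYR1 (-0.092 to 0.95) in PEG over NaCl. In PEG over NaCl only the estimates of PYR1 and PYL7 were followed, so sign changes of the other receptors there are not known. The sign changed without lsm1a lsm1b cold for PYL1, PYL5 and PYL7, without lsm1a lsm1b PEG for PYL4 and PYR1, and also in cold over NaCl without the library labelled lsm1a lsm1b for PYL5 (0.17) and without Col-0 NaCl for PYL7 (0.045). The cause was not tested. The stress block pairs the genotypes by stress; the labels give no replicate numbers for a further block. Depth limits PYL2 and PYL6, which had 8 to 25 counts.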

Other observations

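Receptor genes outside the 9 were sparse. PYL3, PYL10 and PYL12 were not listed for any stress. PYL11 had 13 counts in lsm1a lsm1b and 0 in Col-0 in PEG. With a floor of 3 counts for Col-0 this is 4.60-fold higher, and the 95% counting interval of its log2 ratio starts at 1.69. In NaCl it had 22 counts in the library labelled lsm1a lsm1b and 0 in Col-0. That is 6.54-fold higher with the same floor, and the interval of the log2 ratio starts at 2.29. PYL13 had 26 counts in lsm1a lsm1b and 1 in Col-0 in PEG, a log2 ratio of 3.28 (95% counting interval 2.18 to 10.1). All 3 values were under 5 CPM, and such genes were listed only through their higher library. PYL11 is 86.0% identical to PYL12 in its coding sequence, and its counts are uncertain for that reason. Seed storage and oil body genes summed to 552 RPKM in lsm1a lsm1b and 319 RPKM in Col-0 in PEG, with 3 of 5 at least 2-fold higher and 2 lower (CRU2 at -3.69 and SESA1 at -2.29 on the log2 scale). In NaCl all 4 listed were higher, and they summed to 373 RPKM in the library labelled lsm1a lsm1b and 22.7 RPKM in Col-0, and their part in the PYL11 and PYL13 values was not tested.

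In the cold, 2 of 7 ABA synthesis genes were higher in lsm1a lsm1b and 1 was lower by the 2-fold rule, beside 8.26% and 5.13% of all genes. NCED5, which encodes an enzyme of the rate-limiting cleavage step of ABA synthesis, had 127 counts in lsm1a lsm1b and 8 in Col-0. NCED3 had 807 in lsm1a lsm1b and 203 in Col-0. It ran the other way in PEG, with 7202 counts in lsm1a lsm1b and 13091 in Col-0 (log2 ratio -0.78). In NaCl NCED3 had 3193 counts in the library labelled lsm1a lsm1b and 3643 in Col-0 (log2 ratio -0.35). NCED5 was the gene of the 7 tested that was called across stresses, at 4.16 ± 0.30 (edgeR adjusted p 0.0315), beside 0.112% of all genes called higher. That call was lost without the NaCl pair and without the PEG pair, where 0 genes were called. BGLU18, whose product releases ABA from its glucose ester, was lower, with 2167 counts in lsm1a lsm1b and 5827 in Col-0 in the cold. Its log2 ratio was -1.25 in cold, -2.51 in PEG and -3.08 in NaCl. Of 4 ABA breakdown genes 1 was higher in the cold (CYP707A2, with 102 counts in lsm1a lsm1b and 50 in Col-0) and 0 lower. None passed in PEG. In NaCl 1 was lower (CYP707A3, with 187 counts in the library labelled lsm1a lsm1b and 1104 in Col-0), beside 4.46% of all genes. Of 4 transport genes 2 were higher in the cold, ABCG40 with 1306 counts in lsm1a lsm1b and 86 in Col-0, and DTX50 with 225 in lsm1a lsm1b and 18 in Col-0.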
